A study of Mus musculus with 6 samples.

Results

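The apical junction and cell polarity genes examined here were 10 of the 24041 genes in the deposited table, chosen by symbol: Cdh2, Ctnnb1, Ctnna1, Ctnna2, Pard3, Pard6a, Prkci, Cdc42, Crb2 and Llgl1. They were measured in cells of the mouse cerebral cortex that took up plasmids by electroporation, in which a pulse of current opens the membrane, and that were collected by their green fluorescence (GFP). The mutant group received GFP with mutant PRPF6 (3 libraries) and the wild-type group GFP with wild-type PRPF6 (3 libraries), so both groups carry a PRPF6 plasmid beside the animal's own Prpf6. PRPF6 is a protein of the tri-snRNP, a building block of the spliceosome. The change in the mutant, the plasmid's promoter, the age and strain of the mice and the number of animals behind each library were not stated in the labels read here. The p-values therefore cover the spread among these libraries alone, and some of it may be technical.

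Radial glia, the stem cells of the embryonic cortex, line the ventricle with an apical foot that is held to its neighbours by an adherens junction. N-cadherin spans the membrane there and is tied to actin through beta-catenin and alpha-catenin. Above the junction sit the Par complex, in which PAR3, PAR6 and an atypical protein kinase C act with the GTPase CDC42, and the Crumbs complex, while LGL proteins oppose the kinase at the basolateral side. Newborn neurons let go of this belt when they leave the ventricle, and loss of its parts is known to disturb the ventricular surface and the position of neurons.

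The libraries held 45115122 to 57475218 expected counts with mutant PRPF6 and 47564897 to 60600617 with wild-type PRPF6. The members had 798 to 66661 counts in a library, so that counting error was small for all of them, about 3.54% for the lowest. Prpf6 itself was at 131, 145 and 125 CPM (counts scaled to library size) in mutant replicates 1, 2 and 3 against 166, 124 and 131 CPM in wild-type replicates 1, 2 and 3, with overlap between the groups. Whether reads from the plasmids are counted in it is not stated, so it does not check the labels. Every library held the markers of radial glia (9 of 9) and of neurons (12 of 12) above 0. Of the 6 libraries, 3 stood apart in markers of other cells. Wild-type replicate 3 had a summed red blood cell level of 17127 CPM, against 81.7 to 1601 CPM in the mutant libraries and 993 and 2820 CPM in the other wild-type libraries, and its meningeal and pericyte sum was 1724 CPM, against 29.9 to 200.3 CPM in the mutant libraries and 135 and 139.5 CPM in the other wild-type libraries. Mutant replicate 1 had the highest sum of choroid plexus and ependyma markers, 824 CPM, followed by wild-type replicate 3 with 561 CPM, while the other libraries held 64.8 to 119.7 CPM. Mutant replicate 1 was also low in the neurogenic gene Eomes (20.6 CPM, against 97.4 to 202 CPM elsewhere). The 7 intermediate progenitor markers, Eomes among them, summed to 1524 CPM in this library. By that sum the other mutant libraries held 1505 and 2409 CPM and the wild-type libraries 1226 to 1871 CPM. Mutant replicate 1 was low in the neuronal factor Neurod6 as well (57.5 CPM, against 583 to 1275 CPM elsewhere). Mutant replicate 2 had the most microglia RNA, 833 CPM by its markers, against 35.9 and 42.5 CPM in the other mutant libraries and 119.6 to 305 CPM in the wild-type libraries. Each library was left out in turn, and mutant replicate 1 and wild-type replicate 3 were also left out together. Values without a library are given where they moved a difference by over 1.5 times, for Cdh2 and Prpf6 mainly as ranges.

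No member passed the test for a difference between mutant and wild-type PRPF6 (edgeR quasi-likelihood test over all 14451 tested genes, Benjamini-Hochberg adjusted p = 1.00 for each of the 10). Across all tested genes 0 passed, a share of 0%, while 489 (3.38%) stood at an unadjusted p under 0.05. That number was 1016 without mutant replicate 2. All 10 members were abundant enough to be tested. Fitted differences were above 0 for 8 members and below 0 for 2, where 49.8% of all tested genes were above 0. Their median log2 difference (mutant over wild-type) was 0.12, against -0.0013 over all tested genes. The member highest relative to wild-type was the Crumbs gene Crb2 (log2 difference 0.94), and the lowest were the alpha-catenin gene Ctnna2 and the Par6 gene Pard6a (-0.43 each). Llgl1 was the 1 member of 10 with all mutant libraries above all wild-type libraries, a position that 4.6% of all tested genes shared, and no member was below in the same sense, where 4.54% of the genes were. At an unadjusted p under 0.05 stood 1 of the 10 as higher, again Llgl1, where the share of all genes was 2.18%, and 0 as lower, where it was 1.2%. DESeq2 placed 2 members, Crb2 and Llgl1, under an unadjusted p of 0.05, where the share of all genes was 4.44% (642 genes), and limma-voom 1, where it was 3.81% (551 genes). DESeq2 gave an adjusted p to 7 of the 10 members, none of them under 0.05, and none to Crb2, Pard6a and Prkci. Over all genes with an adjusted p, DESeq2 called 0.309% as higher and 0% as lower, and limma-voom called 0 genes and no member.

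**Figure D1:**
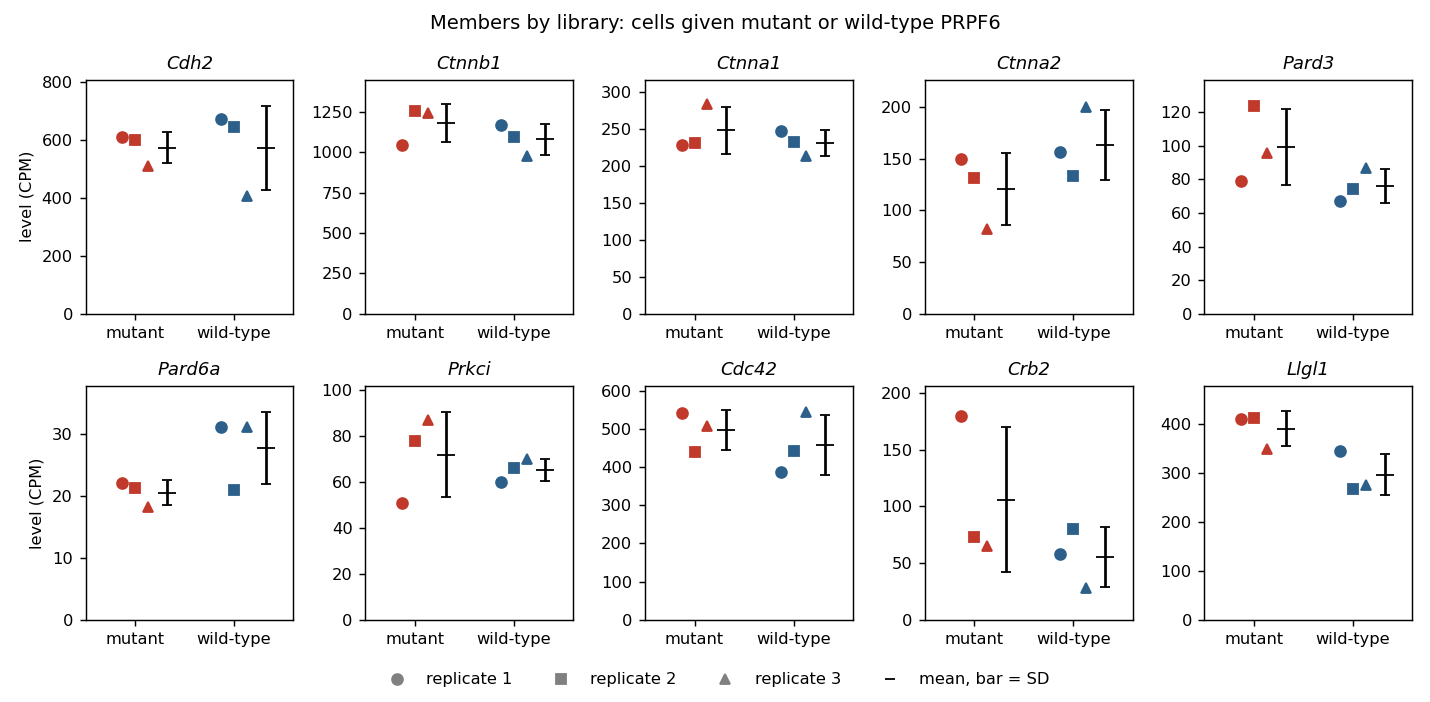
Level of each of the 10 members in CPM (linear axes from 0) in the 3 libraries with mutant PRPF6 (red) and the 3 with wild-type PRPF6 (blue); symbols mark the replicate number and black marks the group mean with its SD. Only the panel of Llgl1 has all red points above all blue points, and the panel of Crb2 shows mutant replicate 1 at 179.7 CPM, far above the other 5 libraries.

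The stretches upstream of the start sites of the 3 members at the ends of this range are shown here: Crb2 with the highest difference, Llgl1 with groups that did not overlap, and Ctnna2 with the lowest. They come from RefSeq on GRCm38.p6, run 5′ to 3′ on the gene's own strand, begin 250 bases before the start site, and leave out bases annotated as exon. Of the 10 members 8 were in the promoter table, and Cdh2 and Ctnna1 were not. Capitals mark matches on either strand. The letters searched were TGGGAA for the core of the RBPJ site, through which Notch signals act. They were CANNTG for the E-box, which is bound by proneural factors. For the GC box they were GGGCGG, and the CCAAT box and the TATA box were searched by their own letters, the second as TATAAA.
Crb2, chr2:37775999-37776248, plus strand: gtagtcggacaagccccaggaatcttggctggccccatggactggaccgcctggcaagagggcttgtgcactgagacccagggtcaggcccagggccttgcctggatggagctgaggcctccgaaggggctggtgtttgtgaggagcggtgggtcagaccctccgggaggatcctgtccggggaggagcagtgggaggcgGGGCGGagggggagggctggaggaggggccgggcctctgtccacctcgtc
Llgl1, chr11:60699450-60699699, plus strand: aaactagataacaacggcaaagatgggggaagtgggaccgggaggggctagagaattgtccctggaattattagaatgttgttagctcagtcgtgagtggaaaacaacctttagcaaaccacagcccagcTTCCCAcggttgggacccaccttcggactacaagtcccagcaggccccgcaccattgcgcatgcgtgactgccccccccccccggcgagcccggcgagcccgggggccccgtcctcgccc
Ctnna2, chr6:77979700-77979917, minus strand: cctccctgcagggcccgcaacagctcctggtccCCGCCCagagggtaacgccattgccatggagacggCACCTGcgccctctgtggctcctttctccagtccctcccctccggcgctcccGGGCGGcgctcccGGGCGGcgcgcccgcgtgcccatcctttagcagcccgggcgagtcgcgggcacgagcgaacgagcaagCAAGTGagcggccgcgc
In the 250 bases the Crb2 window held 1 GC box, the Llgl1 window 1 RBPJ core on the opposite strand, and the Ctnna2 window 2 E-boxes and 3 GC boxes, with no match overlapping another. Among 32526 windows of the same length, 21.6% held the RBPJ core, 66.2% an E-box, 33% a GC box, 33.8% a CCAAT box and 12.3% a TATA box. No motif was shared by all 3 windows. Their G and C content was 68.8%, 60.8% and 73.2% for Crb2, Llgl1 and Ctnna2, against a median of 52.4%. These are matches of letters in a window, not binding sites.

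The adherens junction members were close to level between the groups, apart from Ctnna2. Cdh2 (ENSMUSG00000024304, chromosome 18, 16588877 to 16809246, minus strand, GRCm38), which encodes N-cadherin, was at 611, 599 and 512 CPM in mutant replicates 1, 2 and 3, against 671, 643 and 406 CPM in wild-type replicates 1, 2 and 3. The highest and the lowest of the 6 values were both in wild-type libraries, and the groups overlapped. The group means were 574 ± 54.0 CPM with mutant and 573 ± 146 CPM with wild-type PRPF6 (SD, n = 3 each), and the fitted log2 difference was 0.00 ± 0.20 (SE) with a 95% interval of -0.47 to 0.47. Its sign had no stable side: without wild-type replicate 3 the log2 difference was -0.19.

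Ctnnb1 (chromosome 9, 120929216 to 120960507, plus strand), which encodes beta-catenin, the link between cadherin and alpha-catenin and also the transducer of Wnt signals, was at 1046, 1256 and 1245 CPM with mutant and at 1169, 1093 and 975.5 CPM with wild-type PRPF6. Mutant replicate 1 lay inside the wild-type range. The log2 difference was 0.13 ± 0.14 (SE; 95% interval -0.19 to 0.45), and the gene shares 759 exonic bases with Ulk4 on the other strand, which was at 7.05 to 14.0 CPM over the 6 libraries. With single libraries left out the log2 difference ran from 0.068, without wild-type replicate 3, to 0.21, without mutant replicate 1, and it was 0.086 without mutant replicate 2. Ctnna1 (chromosome 18, 35118859 to 35254779, plus strand), the alpha-catenin of epithelia and of neural progenitors, was at 229, 232 and 285 CPM with mutant and at 248, 232 and 213 CPM with wild-type PRPF6. Mutant replicate 3 was its highest library, and the other 5 lay close together. Its log2 difference was 0.10 ± 0.15 (SE; 95% interval -0.24 to 0.45), and it ran from -0.0070 without mutant replicate 3 to 0.16 without mutant replicate 1 or wild-type replicate 1, with 0.053 without wild-type replicate 3.

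Ctnna2 (chromosome 6, 76881637 to 77979699, minus strand) encodes alpha-N-catenin, the alpha-catenin of neurons. It was at 149, 131 and 81.7 CPM in mutant replicates 1, 2 and 3, against 156, 133 and 199.7 CPM in wild-type replicates 1, 2 and 3. Replicates 1 and 2 of both groups were nearly level, and the distance between the groups came from mutant replicate 3, the lowest library, and wild-type replicate 3, the highest. The means were 121 ± 34.9 CPM with mutant and 163 ± 34.0 CPM with wild-type PRPF6 (SD, n = 3 each), and the fitted log2 difference was -0.43 ± 0.25 (SE; 95% interval -1.02 to 0.15; edgeR unadjusted p = 0.126). Without mutant replicate 3 the log2 difference was -0.22 and without wild-type replicate 3 it was -0.25. The summed level of the 12 neuron markers was 1784, 3296 and 2281 CPM in mutant replicates 1, 2 and 3, against 4491, 3180 and 3676 CPM in the wild-type libraries in the same order, and all 12 had fitted differences below 0. Its part in the Ctnna2 values was not tested, and in such bulk libraries fewer cells of a type and less RNA per cell cannot be told apart.

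The ratio of Ctnna2 to Ctnna1 counts sets the neuronal against the epithelial alpha-catenin within a library and needs no depth scaling. It was 0.651, 0.566 and 0.287 in mutant replicates 1, 2 and 3, against 0.630, 0.572 and 0.936 in wild-type replicates 1, 2 and 3. On the log2 scale it averaged -1.08 ± 0.63 with mutant and -0.52 ± 0.38 with wild-type PRPF6 (SD, n = 3 each). The difference of the means, -0.56, was smaller than the SD within the mutant group, and the groups overlapped. It was -0.20 without mutant replicate 3.

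Of the Par complex, Pard3 was on the higher side and Pard6a on the lower side in the mutant libraries, and Prkci and Cdc42 were nearly level. Pard3 (chromosome 8, 127063893 to 127612286, plus strand), the scaffold that places the complex at the junction, was at 79.0, 124 and 95.7 CPM with mutant and at 67.0, 74.5 and 86.6 CPM with wild-type PRPF6. Mutant replicate 1 lay below wild-type replicate 3, and the 2 groups otherwise stood apart. The means were 99.5 ± 22.6 CPM with mutant and 76.0 ± 9.87 CPM with wild-type PRPF6 (SD, n = 3 each), and the fitted log2 difference was 0.39 ± 0.21 (SE; 95% interval -0.096 to 0.87). The log2 difference ran from 0.20 without mutant replicate 2 to 0.53 without mutant replicate 1.

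Pard6a (chromosome 8, 105701148 to 105703496, plus strand), the adaptor that joins CDC42 to the kinase, had the fewest counts of the members and was at 22.1, 21.4 and 18.2 CPM with mutant and at 31.1, 21.0 and 31.2 CPM with wild-type PRPF6. Wild-type replicate 2 was at the level of the mutant libraries, and wild-type replicates 1 and 3 were above all of them. The means were 20.6 ± 2.09 CPM with mutant and 27.8 ± 5.83 CPM with wild-type PRPF6 (SD, n = 3 each), and the fitted log2 difference was -0.43 ± 0.27 (SE; 95% interval -1.06 to 0.20; edgeR unadjusted p = 0.151).

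Prkci (chromosome 3, 30995747 to 31052959, plus strand), the atypical kinase PKC-iota, was at 51.1, 78.0 and 87.0 CPM with mutant and at 60.3, 66.0 and 69.9 CPM with wild-type PRPF6. The mutant libraries reached below and above the whole wild-type range. The log2 difference was 0.14 ± 0.23 (SE; 95% interval -0.38 to 0.66), and it was -0.020 without mutant replicate 3 and 0.34 without mutant replicate 1. It was 0.079 without mutant replicate 2, 0.085 without wild-type replicate 1, and 0.39 with mutant replicate 1 and wild-type replicate 3 both left out. Cdc42 (chromosome 4, 137319696 to 137357720, minus strand), the GTPase that recruits PAR6, was at 541, 439 and 508 CPM with mutant and at 387, 442 and 544 CPM with wild-type PRPF6. Again the groups overlapped through most of their range (log2 difference 0.12 ± 0.17, SE; 95% interval -0.27 to 0.50). Leaving out wild-type replicate 1 gave a log2 difference of 0.010, and leaving out wild-type replicate 3 gave 0.26. It was 0.049 without mutant replicate 1, and leaving out mutant replicate 2 gave 0.20. With mutant replicate 1 and wild-type replicate 3 both left out it was also 0.20.

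The Crumbs and Lgl members had the largest log2 differences above 0, and neither passed the test. Llgl1 (chromosome 11, 60699723 to 60714186, plus strand), a homolog of the fly tumour suppressor lethal giant larvae, was at 409, 411 and 349 CPM in mutant replicates 1, 2 and 3, against 344, 268 and 275 CPM in wild-type replicates 1, 2 and 3. The lowest mutant library and the highest wild-type library were close, at 349 and 344 CPM. The means were 389 ± 35.3 CPM with mutant and 296 ± 42.2 CPM with wild-type PRPF6 (SD, n = 3 each), and the fitted log2 difference was 0.40 ± 0.16 (SE; 95% interval 0.040 to 0.75; edgeR unadjusted p = 0.0333, adjusted p = 1.00 over all genes). Over its alternatives the log2 difference lay between 0.32 and 0.52 and the adjusted p between 0.619 and 1.00. The edgeR unadjusted p lay between 0.0150 and 0.118 with single libraries left out, and it was 0.198 without mutant replicate 1 and wild-type replicate 3. Llgl1 shares 64 exonic bases with Flii on the other strand, and Flii was at 115, 122 and 88.7 CPM with mutant and at 113, 98.6 and 109.7 CPM with wild-type PRPF6.

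Crb2 (chromosome 2, 37776249 to 37799103, plus strand), a transmembrane Crumbs protein of the apical membrane, varied more between libraries than any other member, by 6.50 times between the lowest and the highest, where the other 9 varied by 1.29 to 2.45 times. It was at 179.7, 72.5 and 65.2 CPM in mutant replicates 1, 2 and 3, against 58.4, 79.6 and 27.6 CPM in wild-type replicates 1, 2 and 3. Mutant replicate 1 was the highest library and wild-type replicate 3 the lowest, and the remaining 4 overlapped. The means were 106 ± 64.1 CPM with mutant and 55.2 ± 26.1 CPM with wild-type PRPF6 (SD, n = 3 each), and the fitted log2 difference was 0.94 ± 0.48 (SE; 95% interval -0.17 to 2.05; edgeR unadjusted p = 0.0867). Without mutant replicate 1 it was 0.32, without wild-type replicate 3 it was 0.62, and without both it was 0.0019. Mutant replicate 1 and wild-type replicate 3 are the 2 libraries with the most choroid plexus and ependyma RNA by their markers, and they lie at opposite ends for Crb2. The radial glia sum was 4076, 2184 and 3472 CPM in mutant replicates 1, 2 and 3. In wild-type replicates 1, 2 and 3 it was 1897, 2367 and 1691 CPM. The highest and the lowest library by that sum were also those for Crb2, but the libraries between them were ordered differently. Mutant replicate 3, with a radial glia sum of 3472 CPM, was lower in Crb2 than wild-type replicate 2, with 2367 CPM. The part of either marker list in the Crb2 values was not tested. The Crb2 counts were not whole numbers, as happens where RSEM divides reads between genes, and Crb2 shares 113 exonic bases with Dennd1a on the other strand (42.2 to 65.4 CPM over the 6 libraries).

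**Figure D2:**
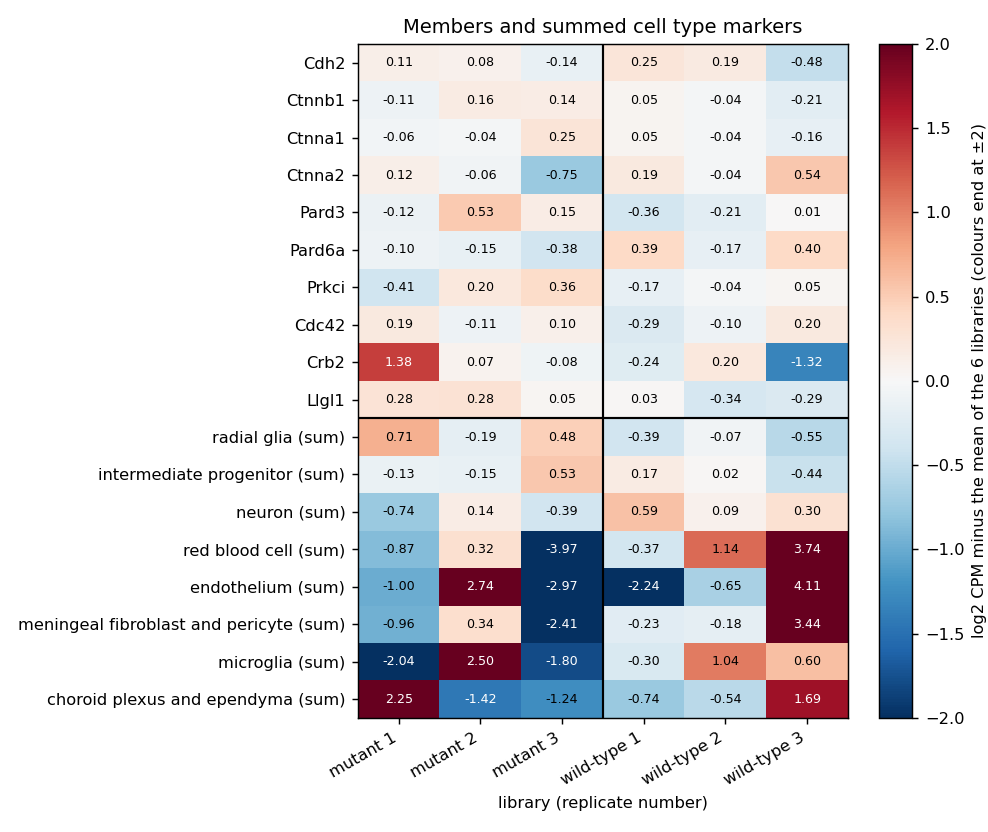
Log2 CPM of each member (upper rows) and of the summed markers of 8 cell types (lower rows) in each library, minus the mean of the 6 libraries; red is above and blue below that mean, with mutant libraries left of the line and wild-type libraries right of it. Crb2 runs from 1.38 in mutant replicate 1 to -1.32 in wild-type replicate 3, and the marker rows of red blood cells and meninges peak in wild-type replicate 3 (3.74 and 3.44).

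With mutant replicate 1 and wild-type replicate 3 both left out, a choice made after the data were seen, the picture of the members was different. Ctnnb1, Pard3, Prkci and Llgl1 (4 of 10) then had both mutant libraries above both wild-type libraries, as did 15% of the 14469 genes tested in that fit, and Cdh2 and Ctnna2 (2 of 10) had both below, as did 14.5%. The log2 difference was 0.64 ± 0.23 (SE) for Pard3 and -0.24 ± 0.19 (SE) for Cdh2. No member passed the test in that fit either (edgeR adjusted p = 1.00 for each).

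The pattern of each member across the 6 libraries was compared with the 101 other tested genes of the members and the 6 wider lists below, by the root mean square difference in log2 CPM after centring each gene. Ctnnb1 and Ctnna1 were nearest to each other, at 0.097, not far below the spread of each gene around its own mean (0.13 for both), so this nearness comes with genes that varied little. Ctnna2 was nearest to Pard6a (0.21). The group difference, -0.43 for both, is part of the pattern compared here, so this nearness is not a separate result. Pard6a in turn was nearest to Enah (0.21), an actin regulator. Pard3 was nearest to Numbl (0.079), a Numb family adaptor, Prkci to the actinin gene Actn1 (0.079), Llgl1 to Arhgdia (0.083), and Cdc42 to the cofilin gene Cfl1 (0.097). Cdh2 was nearest to Ezr (0.17), which encodes the membrane linker ezrin. Crb2 was nearest to Jam2 (0.37), a junctional adhesion molecule. This distance was larger than the nearest one of any other member, but the spread of Crb2 around its own mean (0.79) was also the largest. The group difference is part of the pattern in these other pairs too. It was 0.39 and 0.38 for Pard3 and Numbl, and 0.94 and 0.97 for Crb2 and Jam2. Their nearness is therefore not a separate result either.

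Levels were compared between genes only per length, as CPM per kb of merged exon. Averaged over the 6 libraries, Ctnnb1 was the highest member at 218 CPM per kb, followed by Cdc42 at 161, Cdh2 at 71.1, Llgl1 at 70.5, Ctnna1 at 37.3, Ctnna2 at 20.4, Pard6a at 15.3, Prkci at 12.4, Crb2 just below it and Pard3 at 6.05 CPM per kb. Ctnnb1 and Cdc42 did not overlap between libraries (188 to 242 and 130.4 to 183 CPM per kb), whereas Cdh2 and Llgl1 did (50.3 to 83.2 and 55.0 to 84.5 CPM per kb). The neighbours from Ctnna2 to Pard3 overlapped as well, and with the length of the longest transcript in place of merged exons Pard3 stood above Prkci and Crb2.

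Per length, 1 gene led most of the families to which the members belong, and for Par6 it was not the member Pard6a. The families were put together after the data were seen. Pard6g was the most abundant Par6 gene in all 6 libraries, with 62.8% to 72.5% of the family in mutant and 58.0% to 66.2% in wild-type libraries, against 16.7% to 28.3% and 22.9% to 33.2% for Pard6a. Llgl1 was nearly alone in its family, with at least 98.6% in every library, and Llgl2 was at no more than 0.796 CPM per kb. Crb2 held 91.8% to 94.3% of the Crumbs family in mutant and 76.3% to 93.7% in wild-type libraries. With the longest transcript as length its share was smaller, 61.2% to 88.9% over the 6 libraries, and it was still the highest in all 6. Ctnna1 exceeded Ctnna2 in all 6 libraries, and Ctnna3 had at most 0.0193 CPM per kb. Prkci exceeded its relative Prkcz in all 6 libraries (67.4% to 85.6% in mutant and 56.6% to 71.0% in wild-type libraries), though with the longest transcript as length Prkcz was ahead in 1 library. Pard3 exceeded Pard3b in 5 libraries by merged exons and in all 6 by the longest transcript.

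**Figure D3:**
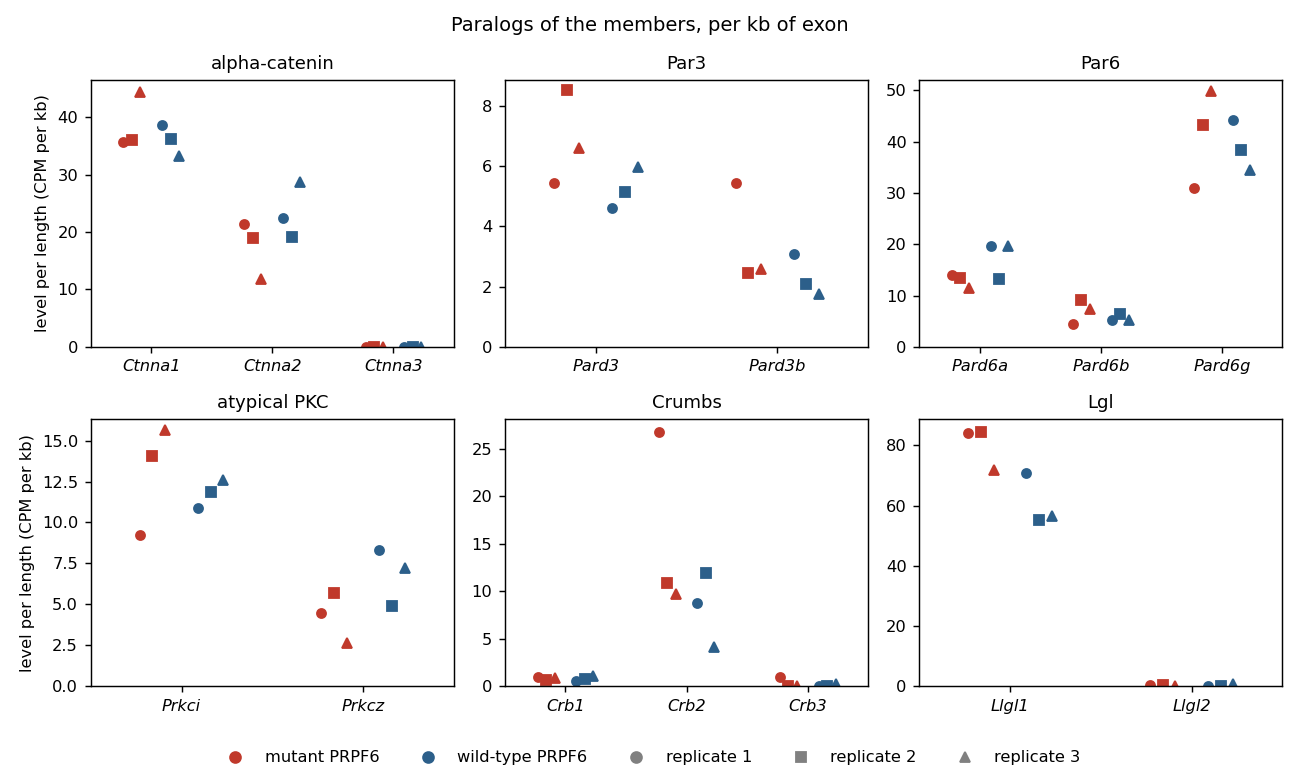
Level per length (CPM per kb of merged exon, linear axes from 0) of the genes of 6 families that hold members, in the 3 mutant (red, left) and 3 wild-type (blue, right) libraries; symbols mark the replicate number. Pard6g lies above Pard6a and Pard6b in every library, and Llgl1, Crb2 and Ctnna1 lie above their relatives.

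Among the cadherins of epithelia and neural tissue compared here, Cdh1 (E-cadherin) was at or near 0, with at most 0.558 CPM per kb in mutant and 0.852 CPM per kb in wild-type libraries. Cdh2 was the main one, and Cdh4 (R-cadherin), its close relative, followed. The share of Cdh4 among Cdh1, Cdh2 and Cdh4 was 24.8% to 32.2% in mutant and 18.5% to 23.4% in wild-type libraries, without overlap. The share was chosen after its values were seen and was not tested, and how often such shares separate the groups was not counted. Cdh4 itself overlapped between the groups, with wild-type replicate 1 at 185 CPM above mutant replicate 3 at 152 CPM. Its log2 difference was 0.50 ± 0.26 (SE; edgeR unadjusted p = 0.0847).

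The members sit in a wider set of junction and polarity genes, taken as 6 lists by function with 96 genes, of which 92 were abundant enough to be tested. None of the 92 passed the test (edgeR adjusted p over all genes, where 0% passed), and limma-voom called none of them either. DESeq2 gave an adjusted p to 31 of them, none under 0.05, and gave none to 60, Fat1 and Ajuba among them. Fitted differences were above 0 for 52 and below 0 for 40, with a median log2 difference of 0.065 (0.12 without mutant replicate 3, while leaving out wild-type replicate 2 gave 0.039). With edgeR, 6 stood at an unadjusted p under 0.05 as higher and 1 as lower, where the shares of all genes were 2.18% and 1.2%. Without mutant replicate 2 these counts were 4 higher and 7 lower, where the shares of all genes in that fit were 2.53% and 4.34%. The 3 mutant values all exceeded the 3 wild-type values in 9 of the 92 (9.78%, against 4.6% of all tested genes) and were all smaller in 4 (4.35%, against 4.54%). Without mutant replicate 1 and wild-type replicate 3 these counts were 23 of 89 (25.8%, against 15% of the genes tested in that fit) and 15 of 89 (16.9%, against 14.5%).

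By list, nectins and junction adaptors had 13 of 18 genes above 0 (median log2 difference 0.32), regulators and paralogs of the Par complex 10 of 12 (0.25), and CDC42 effectors and regulators 10 of 16 (0.22). The other lists were on the lower side by their medians, with 6 of 14 cadherins and catenins above 0 (-0.10), 7 of 16 genes of the Crumbs and Scribble complexes (-0.17), and 6 of 16 genes of the apical actomyosin belt (-0.073). The lists were not tested against each other.

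**Figure D4:**
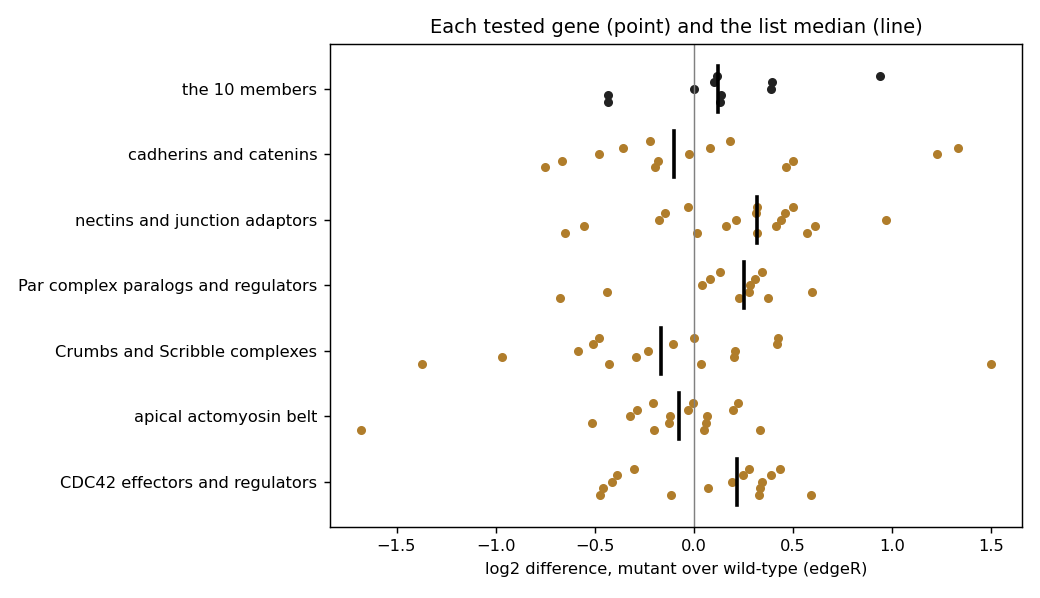
Log2 difference, mutant over wild-type, of each tested gene (points; vertical offsets only separate them) for the 10 members and the 6 wider lists, with the list median as a black line. The members centre at 0.12, and the medians of the wider lists lie between -0.17 and 0.32.

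Fat1, a giant atypical cadherin of the apical junction of radial glia, had the smallest unadjusted p of the wider lists (edgeR, 0.0054). It was at 111, 63.3 and 106 CPM in mutant replicates 1, 2 and 3, against 20.4, 48.0 and 42.6 CPM in the 3 wild-type libraries, without overlap. The means were 93.5 ± 26.2 CPM with mutant and 37.0 ± 14.7 CPM with wild-type PRPF6 (SD, n = 3 each), and the fitted log2 difference was 1.34 ± 0.36 (SE), with values between 1.05 and 1.57 when single libraries were left out. Fat4, another atypical cadherin, whose human mutations cause misplaced neurons, was at 78.5, 59.6 and 57.4 CPM with mutant and at 52.5, 47.6 and 41.7 CPM with wild-type PRPF6, again without overlap. Its log2 difference was 0.46 ± 0.21 (SE), 0.31 without mutant replicate 1, and 0.23 without mutant replicate 1 and wild-type replicate 3.

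Jam2, which encodes a junctional adhesion molecule, was at 158, 95.6 and 95.3 CPM with mutant and at 52.4, 78.3 and 47.3 CPM with wild-type PRPF6. All mutant libraries were higher, and mutant replicate 1 was the highest, as for Crb2. The log2 difference was 0.97 ± 0.28 (SE; edgeR unadjusted p = 0.00818), and 0.55 without mutant replicate 1 and wild-type replicate 3. Ajuba, a LIM protein of the junction, was at 60.0, 96.0 and 98.2 CPM with mutant and at 46.8, 54.1 and 65.1 CPM with wild-type PRPF6, and mutant replicate 1 lay within the wild-type range (log2 difference 0.61 ± 0.24, SE, and 0.95 without mutant replicate 1 and wild-type replicate 3).

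Next to the Par complex, Prkcz was at 28.2, 36.1 and 16.6 CPM with mutant and at 52.7, 30.8 and 45.7 CPM with wild-type PRPF6 (log2 difference -0.67 ± 0.34, SE). Wild-type replicate 2 lay among the mutant values, and the log2 difference was -0.42 without mutant replicate 3. Numbl was at 76.6, 106 and 88.0 CPM with mutant and at 56.7, 72.7 and 78.9 CPM with wild-type PRPF6 (0.38 ± 0.20, SE), with 1 mutant library inside the wild-type range. Its log2 difference was 0.25 without mutant replicate 2 and 0.59 without mutant replicate 1 and wild-type replicate 3. The CDC42 effector Cdc42ep4, a regulator of septins, was at 209, 189 and 192 CPM with mutant and at 129.5, 139 and 167 CPM with wild-type PRPF6, without overlap (0.44 ± 0.15, SE; edgeR unadjusted p = 0.0208). Pak3, a kinase activated by CDC42 and RAC1 and known from neurons, was at 137, 117 and 153 CPM with mutant and at 213, 161 and 191 CPM with wild-type PRPF6, also without overlap and in the other direction (-0.48 ± 0.17, SE; edgeR unadjusted p = 0.0242).

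In the Crumbs and Scribble lists, Epb41l5, a FERM protein that binds Crumbs, was at 76.0, 77.2 and 76.8 CPM with mutant and at 47.3, 72.2 and 52.4 CPM with wild-type PRPF6. The mutant libraries were almost identical and all higher (log2 difference 0.42 ± 0.20, SE). Mpp7, a membrane-associated guanylate kinase, was at 8.62, 14.8 and 17.5 CPM with mutant and at 21.1, 41.7 and 17.4 CPM with wild-type PRPF6 (-0.97 ± 0.43, SE), and it was -0.50 without wild-type replicate 2, the highest library. In the actomyosin belt, Rock1, a kinase that promotes myosin contraction, was at 96.0, 112 and 109.6 CPM with mutant and at 164, 129 and 103 CPM with wild-type PRPF6 (-0.32 ± 0.20, SE), and the membrane linker gene Msn at 121, 194 and 143 CPM with mutant and at 114, 99.4 and 150.3 CPM with wild-type PRPF6 (0.33 ± 0.23, SE). Both overlapped between the groups. The log2 difference of Rock1 was -0.13 without wild-type replicate 1. That of Msn was 0.13 without mutant replicate 2, 0.21 without wild-type replicate 2, 0.52 without wild-type replicate 3 and 0.66 with mutant replicate 1 and wild-type replicate 3 both left out.

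**Figure D5:**
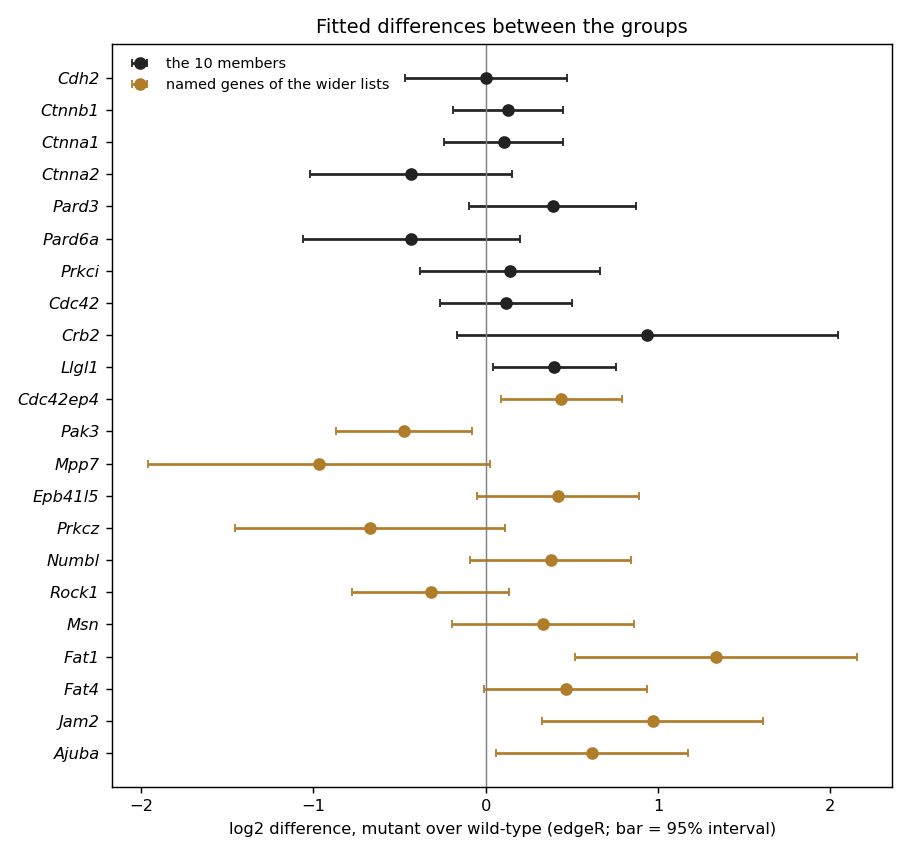
Fitted log2 difference, mutant over wild-type, with its 95% interval for the 10 members (black) and the 12 named genes of the wider lists (brown). Among the members only the interval of Llgl1 (0.040 to 0.75) leaves out 0, and that of Crb2 (-0.17 to 2.05) is the widest.

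The radial glia markers mark the cells that own most of this junction. They were above 0 in 9 of 9 genes (median log2 difference 0.55). Neuron markers were below 0 in 12 of 12 (median -0.82), beside the member median of 0.12. Of all tested genes 49.8% were above 0. Also below 0 were 12 of 12 red blood cell markers (-3.18), 6 of 6 tested endothelial markers (-1.75) and 9 of 11 meningeal and pericyte markers (-2.62). Above 0 were 8 of 9 microglia markers (0.46), 5 of 6 choroid plexus and ependyma markers (0.57) and 5 of 7 intermediate progenitor markers (0.29). By summed level, microglia markers were high with mutant PRPF6 in replicate 2 alone (833 CPM). Choroid plexus and ependyma markers were high there in replicate 1 alone (824 CPM). For both sums the other mutant libraries lay below every wild-type library. None of these markers passed the test. Their part in the values of the members and of the wider lists was not tested. Endothelial markers summed to 5.09 and 68.0 CPM in mutant replicates 1 and 2 and less in mutant replicate 3, against 2.15, 6.48 and 175 CPM in the wild-type libraries. Mutant replicate 2, the library with the most microglia RNA, was the highest for Pard3, Ctnnb1 and, by a narrow margin, Llgl1, and the part of these cells in those values was not tested.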

How the data were processed

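Messenger RNA was measured in 6 libraries of sorted, GFP-positive cortical cells, 3 with mutant and 3 with wild-type PRPF6, grouped by the sample titles. Per the labels' protocols, very small RNA inputs were amplified as cDNA with a SMART-Seq kit and read from both ends. The authors deposited 1 table of expected counts, which RSEM had estimated on mm10, per the submitters' processing notes. The strand setting, the annotation and the filters are not stated there, so reads of overlapping genes on opposite strands cannot be told apart. Reads carry no molecular identifiers, and counting errors given cover counting only.

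Expected counts were rounded, filtered with filterByExpr (14451 genes left), scaled with TMM factors and tested with edgeR 4.0.16 in R 4.3.3 (quasi-likelihood test with robust dispersions and the group term alone, two-sided, Benjamini-Hochberg adjustment over all tested genes, threshold 0.05). Standard errors were taken from the F statistic and 95% intervals from the prior and residual degrees of freedom added together. CPM values are scaled with the same factors. The alternatives replaced TMM by size factors of DESeq2 or by upper quartiles, dropped the filter or set it at 1 CPM in 3 libraries, and used DESeq2 1.42.0, limma-voom (limma 3.58.1), a replicate block or 5 of the 6 libraries. A fit without 2 libraries and another gene length were chosen after seeing the data. The steps were run on simulated data without the filter, where a minimum of recovered changes was required only at 10% of the real dispersion. How many changes are recovered at the real dispersion is not given here. Gene lengths and coordinates are from GENCODE M21 on GRCm38, and motifs were searched in RefSeq promoters. The members and lists were chosen with earlier results of these data known. Named from each of the 6 wider lists were the 2 genes of smallest unadjusted p, and 9 listed genes were found under older symbols.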

Additional observations from a re-analysis of the deposited data

How the results depend on the processing

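The count of members past the test was 0 under each of the 14 alternatives, as was that of the wider junction and polarity genes. The count over all genes was 0 except with DESeq2, which called 10 genes. DESeq2 gave no adjusted p for 11213 genes. The median log2 difference of the members lay between 0.083 and 0.19 with single libraries left out and between 0.096 and 0.13 otherwise, and that of the wider genes between 0.039 and 0.12 and between 0.035 and 0.071. The log2 difference of Cdh2 turned to -0.016 with upper-quartile factors, to -0.00097 with a filter of 1 CPM in 3 libraries and to -0.24 without mutant replicate 1 and wild-type replicate 3, and ran from -0.19 to 0.13 with single libraries left out. Without mutant replicate 3 the sign turned for Ctnna1 (range -0.0070 to 0.16) and Prkci (-0.020 to 0.34), and for Prpf6 without wild-type replicate 1 (-0.16 to 0.067); the cause was not tested. The alpha-catenin log2 ratio differed by -0.79 to -0.20 with single libraries left out. Of 140 member values 132 kept their sign.

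Whether same-numbered libraries were pairs is not stated, though the deposited columns carry the same numbers in both groups. Those column numbers skip the same values in both groups, and the replicate numbers used here are those of the sample titles. Same-numbered libraries correlated in their deviations from the group means at 0.054, 0.061 and -0.26 for replicates 1, 2 and 3. Not every library correlated best with its own number. Deviations within a group sum to 0 for each gene, so these correlations cannot exclude pairing. With the replicate block 0 genes passed, the member median was 0.12, and 307 genes in place of 489 stood at an unadjusted p under 0.05, while the unadjusted p of Llgl1 was 0.0559 and that of Crb2 0.0488.

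The SE of a log2 difference ran from 0.14 (Ctnnb1) to 0.48 (Crb2) among the members, with a median of 0.34 over all tested genes. The missing calls therefore do not show that these genes were unaffected.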
